A study of Oryctolagus cuniculus with 4 samples.

Results

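Cytokines and chemokines are secreted proteins that cells use to call and instruct other cells, and their receptors carry the message into the receiving cell. The genes described here were all features of the count table whose name, in upper case, starts as a chemokine (CCL, CXCL, XCL, CX3CL), a chemokine receptor (CCR, CXCR, XCR, CX3CR), an interleukin (IL), a tumor necrosis factor or lymphotoxin (TNF, LTA, LTB), an interferon (IFN) or a colony stimulating factor (CSF). This choice by name took 108 of 21139 features, with receptors and binding proteins that share the stem included. It also took 10 names that are not cytokines or cytokine receptors, such as TNFAIP6, LTA4H, LTBP1 and LTB4R, which are described apart. Together the 108 genes held 8855 of 28377083 unique molecular identifiers (UMIs, each a captured transcript molecule).

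The study placed 4 sections of rabbit supraspinatus, a muscle of the rotator cuff, on Visium slides, whose barcoded capture spots each cover a small area that can hold several cells and fibers. The groups were 1 healthy muscle that was freshly frozen (fresh healthy), 1 healthy muscle stored frozen for 6 years (stored healthy), and 1 muscle each from 2 weeks and 16 weeks after tenotomy, the surgical release of the tendon as a model of rotator cuff tear, both also stored for 6 years (2-week and 16-week). All animals were female, skeletally mature New Zealand White rabbits, stated to be 6 months old, all 4 muscles were snap frozen in cooled isopentane, and the sections were cut from the posterior distal muscle belly away from fascia and tendon. By their labels the stored healthy and the 16-week muscle carry 1 animal number and are its right and left side, so that the stored healthy muscle had a tenotomy on the other side of its body, while the 2-week and the fresh healthy muscle carry other numbers. In comparisons with the 2-week or the fresh healthy muscle animal cannot be told apart from condition, and in none can the section be.

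The sections held 1950 fresh healthy, 2440 stored healthy, 854 2-week and 1726 16-week spots, with total UMIs from 4079313 to 12536450 and medians of 2090 to 5195 UMIs per spot. Mitochondrial genes took 49.3% and 49.2% of UMIs in the fresh and stored healthy sections and 33.8% and 34.6% in the 2-week and 16-week sections. Of 2931 distinct spot barcodes, 2118 occurred in 2 or more sections. Levels are given as CPM, the UMIs of a gene per 1000000 UMIs of all genes in the same section or group of spots, and runs of 4 values follow the order fresh healthy, stored healthy, 2-week, 16-week, runs of 3 the order stored healthy, 2-week, 16-week. With 1 section per condition there were no replicates and no test, and every interval is a 95% exact interval of counting error, Poisson for sums, Clopper-Pearson for shares of spots and conditional for ratios. In these sections a lower level of a gene may mean fewer cells of a type or less RNA per cell, which cannot be told apart.

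Chemokines act on receptors of leukocytes and steer them through vessels and tissue. CCL21, made by lymphatic endothelium and by stromal cells of lymphoid organs, draws cells that carry CCR7, CCL14, present in plasma, acts on CCR1, and CCL2 attracts monocytes. CSF1R is the receptor that macrophages need for survival, with CSF1 and IL34 as its ligands. CD68, a lysosomal protein, and COL1A1, a chain of type I collagen, served as the genes for macrophages and for collagen-producing fibrous tissue to which the members were related across spots.

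Fresh healthy muscle held 633 UMIs of the 108 genes, a summed level of 90.2 CPM (83.3 to 97.5), and stored healthy muscle held 2583, or 206 CPM (198 to 214). After tenotomy the level was 391 CPM at 2 weeks (1596 UMIs, 372 to 411) and 852 CPM at 16 weeks (4043 UMIs, 826 to 879). None of these intervals touched another. The summed level was 2.28-fold higher in the stored than in the fresh healthy section (2.09 to 2.50), 1.90-fold higher at 2 weeks than in stored healthy muscle (1.78 to 2.02) and 4.14-fold higher at 16 weeks than in stored healthy muscle (3.94 to 4.35). With mitochondrial genes left out of the total, the levels were 178, 406, 591 and 1303.

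**Figure D1:**
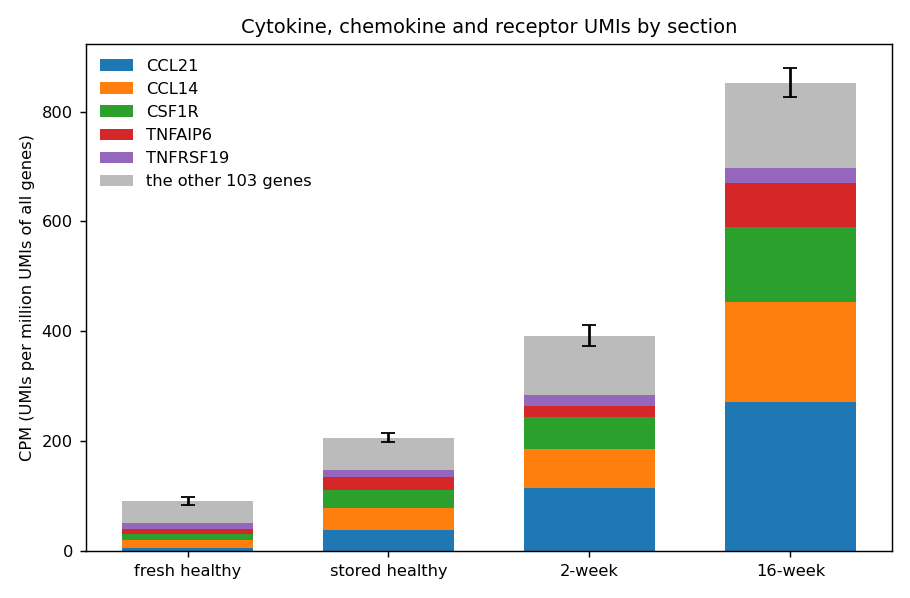
Stacked bars show the CPM (y axis, from 0) of 5 members and of the other 103 genes in each of the 4 sections (x axis), with the exact Poisson 95% interval of the sum. The sum was 90.2 CPM in fresh healthy muscle and 852 CPM at 16 weeks, and CCL21, CCL14 and CSF1R made up most of the 16-week bar.

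The share of spots with at least 1 UMI of any member was 24.8% (22.9 to 26.7) and 48.2% (46.2 to 50.2) in the fresh and stored healthy sections, 64.4% (61.1 to 67.6) at 2 weeks and 68.4% (66.1 to 70.6) at 16 weeks. These shares depend on UMIs per spot, which were fewest at 16 weeks. After each spot was thinned to 1000 UMIs, which left out 266, 93, 53 and 352 shallower spots of the 4 sections, the shares were 8.97%, 16.5%, 27.6% and 48.3%. The 2-week and 16-week shares, close to each other before thinning, were apart after it, with intervals of 24.5 to 30.8 and 45.7 to 51.0.

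Few genes carried these counts. CCL21 held 25.7% of all member UMIs, CCL14 19.98%, CSF1R 15.2%, TNFAIP6 9.22% and TNFRSF19 5.24%, which came to 75.4% for 5 of 108 genes. Of the others, 8 genes had 100 UMIs or more in all sections together, 42 had 1 to 19 UMIs, 12 of them a single UMI, and 40 had none. Over all sections 63.0% of members had a UMI, against 54.2% of all features. Between 44 and 55 members had a UMI in any 1 section. These were 40.7%, 50.9%, 47.2% and 48.1% of members, against 42.2%, 46.8%, 43.7% and 46.5% of all features. By role, 14 chemokine ligands held 49.5% of member UMIs, 2 colony stimulating factor receptors 15.2%, the 10 other names 11.9%, 8 TNF receptors 7.10%, 25 interleukin receptors and binding proteins 6.85%, 22 interleukins 3.25%, 7 TNF ligands 3.004%, 2 interferon receptors 2.69% and 11 chemokine receptors 0.452%.

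**Figure D2:**
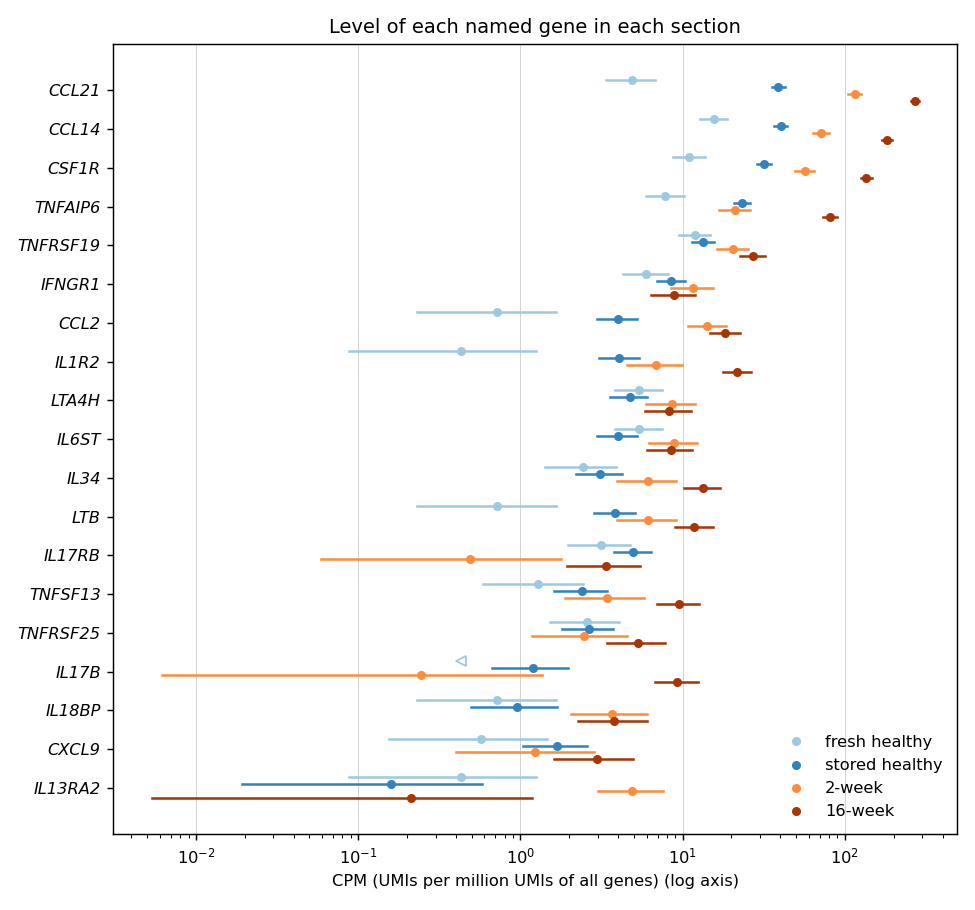
Points give the level of each of 19 named members in CPM (x axis, log scale) in each section, with the exact Poisson 95% interval as a line, and the open triangle marks a gene at 0 UMIs, drawn at the level that 3 counts would give. CCL21, CCL14 and CSF1R stood apart at the top with their 16-week points furthest to the right, while IL13RA2 was highest and IL17RB lowest at 2 weeks.

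Among the chemokine ligands, CCL21 had 34, 487, 468 and 1288 UMIs, or 4.84, 38.8, 115 and 272 CPM. The 4 intervals were separate, and CCL21 spanned the widest range of the 3 leading members. It was 8.02-fold higher in the stored than in the fresh healthy section (5.66 to 11.7), 2.95-fold higher at 2 weeks than in stored healthy muscle (2.60 to 3.36) and 2.37-fold higher at 16 weeks than at 2 weeks (2.13 to 2.64). It was found in 1.03%, 8.36%, 19.3% and 26.9% of spots. CCL21 was also the leading member most concentrated in few spots, wherever these lay. Its 10 richest spots held 31.4%, 43.8% and 26.0% of its UMIs in the 3 stored sections, with up to 94 UMIs in 1 spot. The same number of spots held 9.94%, 18.2% and 7.29% of CCL14 and 12.1%, 21.2% and 8.71% of CSF1R.

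**Figure D3:**
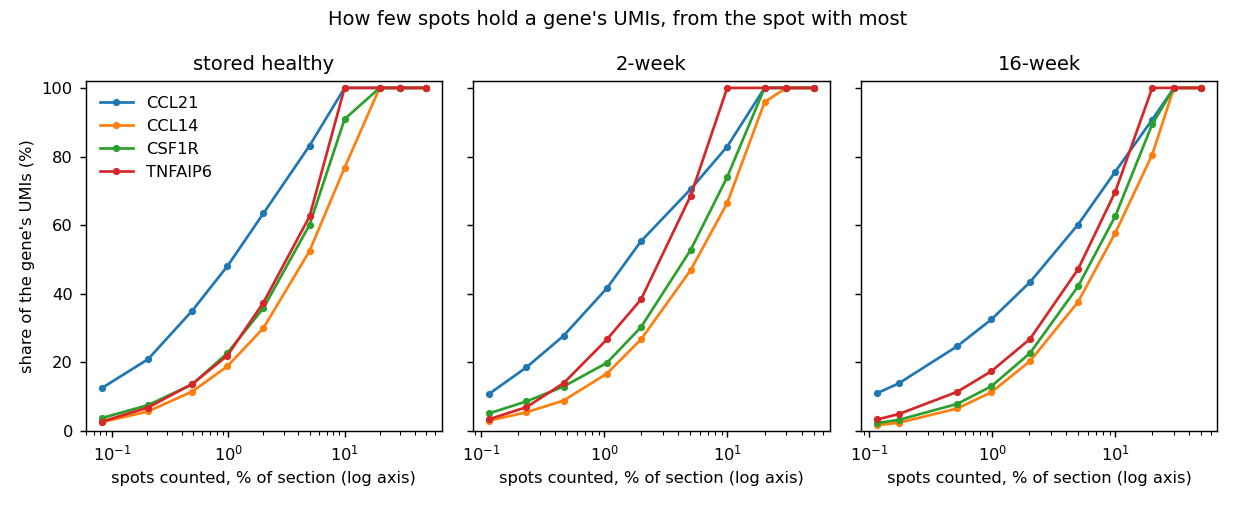
Lines show what share of a gene's UMIs (y axis, %) is held by its richest spots, counted from the spot with most UMIs and given as a share of all spots of the section (x axis, log scale), for 4 members in the 3 stored sections. The CCL21 line lies above the other 3 at the left of each panel, with 48.9%, 41.7% and 33.2% of its UMIs in 1% of spots.

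CCL14 had 110, 503, 292 and 864 UMIs, which was 15.7, 40.1, 71.6 and 182 CPM. It was less concentrated in single spots, in 4.92%, 14.8%, 21.4% and 29.7% of spots and never above 9 UMIs in 1 spot. Its level was 4.54-fold higher at 16 weeks than in stored healthy muscle (4.06 to 5.08). CCL2 had 5, 50, 58 and 87 UMIs, or 0.712, 3.99, 14.2 and 18.3 CPM, and its 2-week and 16-week intervals (10.8 to 18.4 and 14.7 to 22.6) overlapped. In the stored healthy section 14 of its 50 UMIs came from 1 spot. CXCL9, a ligand of CXCR3 that interferon gamma induces, had 4, 21, 5 and 14 UMIs, and its 2-week and 16-week levels of 1.23 and 2.95 CPM had overlapping intervals (0.398 to 2.86 and 1.61 to 4.95). Outside the rule for named genes, CCL19, which shares CCR7 with CCL21, had 5, 18, 13 and 17 UMIs, CXCL10 had 5, 1, 8 and 0, and CCL11, an attractant of eosinophils, had 0, 5, 1 and 8. CXCL8, CXCL5, CCL20 and CX3CL1 had 4 UMIs or fewer each over all sections, and CCL22, CXCL11 and CXCL13 had 0.

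The chemokine receptors were at or near 0. All 11 together had 3, 17, 13 and 7 UMIs, with CXCR6 (13 UMIs in sum), CX3CR1 (12) and XCR1 (7) leading, and CXCR4 at 3. CCR7, the receptor of CCL21 and CCL19, had 0 UMIs in all sections, as had CCR8, CCR9 and CXCR3, and CCR1 had 1. By counting error alone, a count of 0 allowed a level of up to 0.427, 0.239, 0.735 and 0.632 CPM, or 3 counts per section. How well each feature captures its gene was not tested. Of 2 endothelial markers, CDH5 had 1, 5, 5 and 5 UMIs where VWF had 827, 2622, 1073 and 1310. CCR2, CXCL12, CCL5 and IL6 belong to the 79 names of this kind in the RefSeq annotation of a second rabbit assembly that matched no feature, and they were not analysed here. Of the atypical chemokine receptors, which take up chemokines without signaling, ACKR4 had 1 UMI in sum and ACKR2 had 0.

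CSF1R had 77, 396, 231 and 643 UMIs, or 10.97, 31.6, 56.6 and 136 CPM, in 3.54%, 11.5%, 16.98% and 23.9% of spots. It was 2.88-fold higher in the stored than in the fresh healthy section (2.25 to 3.72), 1.79-fold higher at 2 weeks than in stored healthy muscle (1.52 to 2.11) and 4.29-fold higher at 16 weeks than in stored healthy muscle (3.78 to 4.88). Of its 2 ligands, IL34 had 17, 39, 25 and 63 UMIs (2.42, 3.11, 6.13 and 13.3 CPM) and was 4.27-fold higher at 16 weeks than in stored healthy muscle (2.82 to 6.54). CSF1 had 1, 2, 1 and 3 UMIs, so that nearly all ligand UMIs were IL34. CSF2 and CSF3 had 0, and CSF2RB, the shared beta chain of the IL-3, IL-5 and CSF2 receptors, had 2 UMIs in sum.

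Among the interleukin 1 family genes with a feature, more UMIs came from inhibitors than from ligands, and the ligands IL18, IL33 and IL37 were not analysed here, as no feature had their name. IL1R2, a decoy receptor that binds interleukin 1 without passing a signal on, had 3, 51, 28 and 103 UMIs, or 0.427, 4.07, 6.86 and 21.7 CPM, and was 5.34-fold higher at 16 weeks than in stored healthy muscle (3.78 to 7.62). IL1RN, the secreted antagonist of the interleukin 1 receptor, had 0, 16, 7 and 19 UMIs and IL18BP, which binds and neutralizes interleukin 18, had 5, 12, 15 and 18. IL1B had 1, 3, 4 and 2 UMIs, IL1A 2 in sum, and the signaling receptor IL1R1 had 2, 2, 1 and 3. IL1RN falls outside the rule for named genes, as do IL1A, IL1B and IL1R1, and these genes were chosen after their values were seen.

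IL17B and IL17RB, a ligand and its receptor chain, were distributed differently over the sections. IL17RB had 22, 62, 2 and 16 UMIs (3.13, 4.95, 0.490 and 3.37 CPM), and its 2-week level stood at 0.0991 times the stored healthy level (0.0117 to 0.374). It was the only member past 2-fold lower in that comparison. IL17B had 0, 15, 1 and 44 UMIs, and was 7.75-fold higher at 16 weeks than in stored healthy muscle (4.23 to 15.0). IL13RA2, a high affinity receptor of interleukin 13 that acts mainly as a decoy, had 3, 2, 20 and 1 UMIs and was thus mostly a 2-week gene, with 4.90 CPM there against 0.160 in stored healthy muscle, a ratio of 30.7 (7.47 to 271). Its 20 UMIs lay in 16 spots. IL6ST, the shared signaling chain gp130 of the IL-6 family, had 38, 50, 36 and 40 UMIs, between 3.99 and 8.83 CPM. IL15 had 4, 4, 11 and 5 UMIs, while IL12A, IL12B, IL13, IL17A, IL5, IL6R and IL23R were among the members at 0.

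In the TNF family the receptors TNFRSF19 and TNFRSF25 and the ligands LTB and TNFSF13 led. TNFRSF19 had 84, 168, 83 and 129 UMIs, or 11.97, 13.4, 20.3 and 27.2 CPM, and its fresh and stored healthy intervals overlapped (9.55 to 14.8 and 11.5 to 15.6). LTB, the membrane part of the lymphotoxin complex, had 5, 48, 25 and 56 UMIs, and its level in stored healthy muscle was 5.37-fold that of the fresh one (2.15 to 17.3). TNFSF13, the plasma cell survival factor APRIL, had 9, 30, 14 and 45 UMIs and was 3.96-fold higher at 16 weeks than in stored healthy muscle (2.44 to 6.52). TNFRSF25, the death domain receptor DR3, had 18, 33, 10 and 25 UMIs. TNF itself had 0, 3, 1 and 2 UMIs, TNFRSF1A 4, 3, 3 and 2, and LTBR, the lymphotoxin beta receptor, 1, 6, 4 and 5.

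Interferon ligands were absent from the counts, with 0 UMIs of IFNB1, IFNE, IFNG and IFNK in every section. Read as 3 counts in sum, and for counting error only, this allowed up to 0.427, 0.239, 0.735 and 0.632 CPM. Their receptors were represented by IFNGR1, the ligand-binding chain of the interferon gamma receptor, with 42, 107, 47 and 42 UMIs, or 5.98, 8.54, 11.5 and 8.85 CPM. It was among the flattest members, since its 16-week level was 1.04 times its stored healthy level (0.708 to 1.495).

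Of the other names, TNFAIP6 encodes TSG-6, a secreted hyaluronan-binding protein that TNF and interleukin 1 induce. It had 55, 291, 86 and 384 UMIs, or 7.84, 23.2, 21.1 and 81.0 CPM, so that its stored healthy and 2-week intervals overlapped (20.6 to 26.0 and 16.9 to 26.0) and the 16-week section alone stood above both, 3.84-fold over the 2-week section (3.03 to 4.91). LTA4H, an enzyme of leukotriene B4 synthesis, had 38, 59, 35 and 39 UMIs, between 4.71 and 8.58 CPM. LTBP1, which binds latent TGF-beta, had 2, 10, 7 and 5 UMIs, and LTB4R had 1 UMI in sum.

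Over all genes, ratios between sections were shifted, with a median log2 ratio over all features of at least 20 UMIs in both sections together of -0.11 for stored over fresh healthy, 0.63 for 2-week over stored healthy, 0.93 for 16-week over stored healthy and 0.32 for 16-week over 2-week. A feature counted as called when it was past 2-fold, a log2 ratio over 1 with 0.5 UMI added. In stored over fresh healthy 8 of the 17 members with enough UMIs were past 2-fold higher and 0 were past 2-fold lower, against 9.36% and 11.0% of all features compared, and the members' median log2 ratio was 0.91. The called members were IL1R2, CCL21, CCL2, LTB, TNFAIP6, CSF1R, CXCL9 and CCL14, and the interval of CXCL9 reached below 1 (2.94, 0.992 to 11.8). IL6ST and LTA4H lay below 1 without a call (0.737, 0.473 to 1.15, and 0.869, 0.569 to 1.34). In spots with neither CD68 nor COL1A1 the log2 ratios of CSF1R (0.62), CCL14 (0.95) and TNFAIP6 (0.98) were no longer past the call, while CCL21 (2.17), IL1R2 (2.56) and LTB (1.90) still were. Summed markers of macrophages (32.2 and 108 CPM) and of fibroblasts (1320 and 3899 CPM) were also higher in the stored section, and their part was not tested.

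In 2-week over stored healthy 7 of 21 members were past 2-fold higher, IL13RA2, IL18BP, CCL2, CCL21, IL13RA1, CCL19 and IL6ST, where 27.6% of all features were, and the members' median log2 ratio was 0.84. The intervals of IL13RA1 (2.56, 0.991 to 6.47) and CCL19 (2.22, 0.9998 to 4.79) reached below 1. With ratios taken relative to the median of all features the number was 3, and the share of all features past 2-fold on that scale was not counted. One member, IL17RB, was past 2-fold lower, against 2.11% of all features. CCL14 and CSF1R, at log2 ratios of 0.84 each, lay 0.21 above the median of all features, while TNFAIP6 at -0.13 lay 0.76 below it. Of the 3 members still called, IL13RA2 lay 4.02, IL18BP 1.30 and CCL2 1.201 above that median.

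In 16-week over stored healthy 17 of 21 members were past 2-fold higher and 0 lower, where 46.9% and 2.36% of all features were, and the members' median log2 ratio was 1.64. Relative to the median of all features 9 were higher and 1, IL17RB, was lower. The share of all features past 2-fold on that scale was not counted, here or for 16-week over 2-week. The largest distances above that median were those of IL17B (1.99), CCL21 (1.87), IL1R2 (1.47), CCL2 (1.26), CCL14 (1.25), CSF1R (1.17), IL34 (1.15), TNFSF13 (1.04) and IL18BP (1.03). IFNGR1 lay 0.87 below it. The 2-week and 16-week comparisons share the stored healthy section. In 16-week over 2-week 10 of 20 members were past 2-fold higher, against 18.1% of all features, their median log2 ratio was 0.996 against 0.32 over all features, and 5 were higher relative to their median, namely IL17B, TNFAIP6, IL1R2, TNFSF13 and CCL14. IL13RA2 alone was past 2-fold lower (20 against 1 UMI), where 5.26% of all features were.

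Genes that act downstream of these receptors were counted from lists. Of 22 JAK-STAT names 9 could be compared in 2-week over stored healthy, and 3 were past 2-fold higher, STAT3 (log2 ratio 1.59), JAK1 (1.38) and PIAS1 (1.28), where 27.6% of all features were, with a median over the list of 0.85 against 0.63 over all features. In 16-week over stored healthy 6 of 9 were higher and 1, SOCS2, a feedback inhibitor, was lower (33 UMIs against 4), where 46.9% and 2.36% of all features were, with a median of 1.44 against 0.93 over all features. Of 32 NF-kB names 2 of 9 were higher in 2-week over stored healthy, below the 27.6% of all features, at a median of 0.42 against 0.63. In 16-week over stored healthy 7 of 11 were higher, against 46.9% of all features, and 0 lower, at a median of 1.62 against 0.93, with NFKBIA, the inhibitor that NF-kB itself induces, at 27.5, 51.7 and 147 CPM. Of 42 interferon response names 11 could be compared with stored healthy muscle, 4 of them past 2-fold higher at 2 weeks, against 27.6% of all features, and 3 at 16 weeks, against 46.9%. The medians of 0.64 and 0.75 stood beside 0.63 and 0.93 over all features. IFIT3, an interferon-induced antiviral protein, had 41, 136, 197 and 46 UMIs and was at 48.3 CPM at 2 weeks and 9.70 CPM at 16 weeks, and IFIT2, IFIH1 and GBP1 were the other 3 past 2-fold at 2 weeks.

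Levels of cell markers differed between the sections beside those of the members. The 9 macrophage features other than CSF1R summed to 32.2, 108, 114 and 301 CPM, with 8 of 9 detected in the fresh healthy section (MSR1 at 0) and 9 of 9 elsewhere. They differed unevenly between 2 and 16 weeks, with C1QA at 13.7 and 96.6 CPM and C1QC at 21.1 and 82.8. AIF1 was at 31.4 and 33.3, and LYZ, which alone was lower at 16 weeks, at 4.41 and 3.58. The 5 fibroblast features summed to 1320, 3899, 12613 and 7586, the 5 endothelial features to 134, 224, 285 and 296, the 3 vessel wall features to 179, 150, 336 and 418, and the 3 adipocyte features to 2.42, 1.91, 7.11 and 81.4. Of the B or plasma cell list, MS4A1 was at 0 in all sections and the sum was 2.28, 0.718, 8.09 and 33.3, of the T cell list only CD2 had a feature, with 0 to 5 UMIs, and the 4 neutrophil features summed to 1.28, 5.98, 12.3 and 12.9. The part of these lists in the members' levels was not tested.

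CD68 had at least 1 UMI in 34, 169, 69 and 144 spots, and COL1A1 in 105, 664, 565 and 382, or 5.38%, 27.2%, 66.2% and 22.1% of spots. The study reports COL1A1 in nearly all spots, with a count threshold needed before it marked connective tissue. Spots with at least 1 COL1A1 UMI are thus not the same as fibrous tissue. In the stored healthy section 69 of 278 CD68 UMIs came from 1 spot. Spots with either gene were deeper than the rest, with median totals of 6213 UMIs with CD68 and 5134 without it in stored healthy muscle. In spots with CD68 the 108 members in sum stood at 1.19 (0.711 to 1.87), 2.44 (2.20 to 2.69), 1.63 (1.42 to 1.86) and 2.24 times (2.07 to 2.42) their level in the other spots. In spots with COL1A1 the ratios were 1.06 (0.771 to 1.42), 2.22 (2.05 to 2.40), 1.86 (1.63 to 2.14) and 2.33 (2.19 to 2.49). Without CCL21 the ratios in CD68 spots were 1.26, 2.44 (2.19 to 2.73), 2.12 (1.83 to 2.46) and 2.01 (1.82 to 2.21). Those in COL1A1 spots were then 1.05, 2.004, 1.62 (1.39 to 1.89) and 2.33. The sum was thus higher in both kinds of spots in the 3 stored sections, though not every member was, and the fresh healthy section, with 19 member UMIs in its CD68 spots, did not show a difference beyond counting error.

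**Figure D4:**
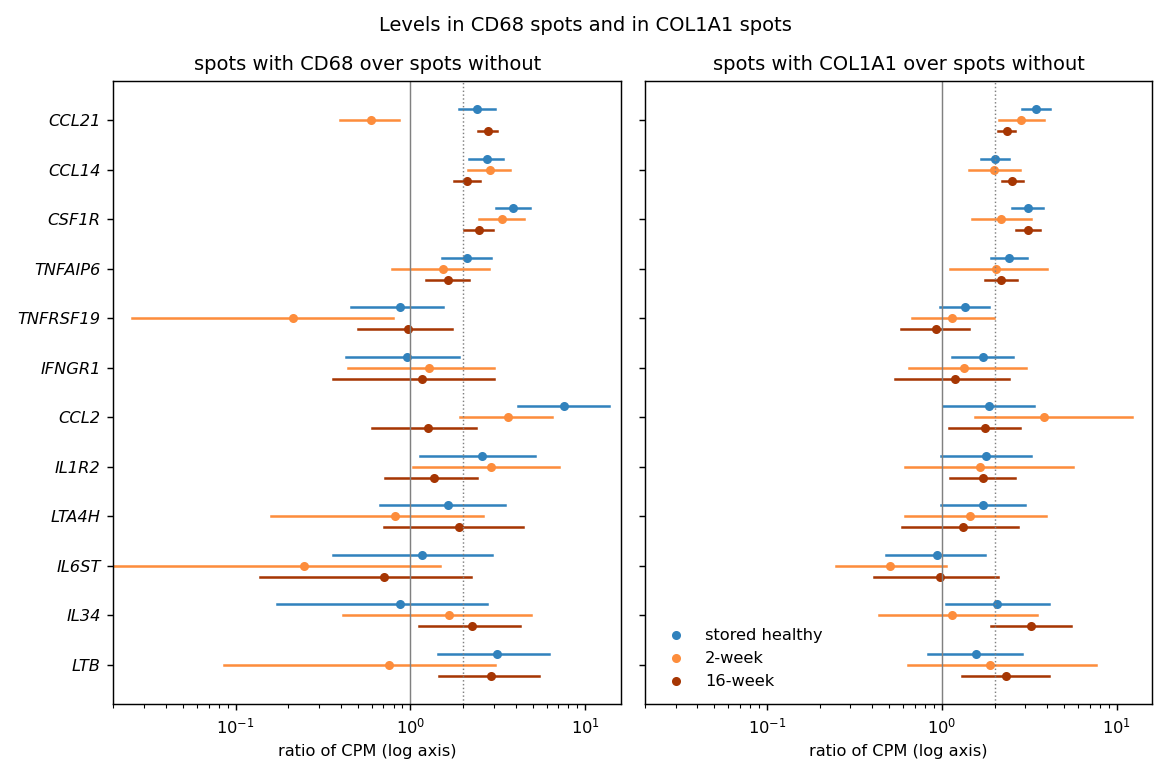
Points show the ratio of a member's level in spots with CD68 (left) or COL1A1 (right) to its level in the remaining spots (x axis, log scale) in the 3 stored sections, with exact conditional 95% intervals, a solid line at a ratio of 1 and a dotted line at 2. CSF1R and CCL14 lie to the right of 1 in both panels in all 3 sections, and CCL21 crosses to the left of 1 in the CD68 spots of the 2-week section.

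CSF1R was higher in CD68 spots in each stored section. It had 107 UMIs in CD68 spots and 289 elsewhere in stored healthy muscle, 97.8 against 25.3 CPM, a ratio of 3.87 (3.07 to 4.85). The ratio was 3.32 (2.45 to 4.46) at 2 weeks and 2.46 (2.03 to 2.97) at 16 weeks. CCL14 followed it, at 2.73 (2.18 to 3.39), 2.84 (2.14 to 3.72) and 2.11 (1.77 to 2.50). CCL2 was at 7.57 in stored healthy muscle (21 of 50 UMIs, 4.10 to 13.7), at 3.59 (1.91 to 6.47) and at 1.26 (0.601 to 2.37). Without its richest spot the log2 ratio of CCL2 was 1.42 in stored healthy and 1.27 in 2-week muscle, in place of 2.93 and 1.87. LTB was at 3.11 in stored healthy (1.43 to 6.22) and 2.89 in 16-week muscle (1.46 to 5.40), and TNFSF13 at 3.80 (1.46 to 8.87) and 3.92 (1.93 to 7.58). At 2 weeks LTB was at 0.754 (2 of 25 UMIs, 0.0862 to 3.05), and TNFSF13 had too few UMIs to be compared. TNFRSF25 had 10 of its 25 UMIs in CD68 spots at 16 weeks, a ratio of 5.78 (2.32 to 13.8). TNFRSF19 and IFNGR1 were near 1 in the stored healthy and 16-week sections, and TNFRSF19 was at 0.214 at 2 weeks, with 2 of 83 UMIs in CD68 spots (0.0255 to 0.799).

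Past 2-fold higher in CD68 spots were 4 of 9, 10 of 16, 4 of 13 and 9 of 15 members, against 17.4%, 13.0%, 11.8% and 9.99% of all features. These calls include the 0.5 added UMI. Without it, IFNGR1 (1.92), TNFRSF19 (1.92) and CCL14 (1.83) in the fresh healthy section had ratios below 2. So had IL17B (1.93) and LTA4H (1.90) in the 16-week section. Past 2-fold lower in CD68 spots were LTA4H in the fresh healthy section (0 of 38 UMIs, ratio interval 0 to 3.92) and 3 members at 2 weeks. These were TNFRSF19 (0.214), IL13RA2 (0 of 20 UMIs, 0 to 1.76) and IL6ST (1 of 36, 0.248, 0.00610 to 1.47). Among these only TNFRSF19 had an interval that left out 1. The share of all features past 2-fold lower in CD68 spots was not counted. In the fresh healthy section no called member had an interval above 1. CCL21 had 30 UMIs in CD68 spots and 438 elsewhere at 2 weeks, a ratio of 0.594 (0.396 to 0.860). In stored healthy muscle the ratio was 2.40 (1.89 to 3.03) and at 16 weeks 2.76 (2.42 to 3.14). The stored healthy value leaned on 1 spot, since without the spot richest in CCL21 the log2 ratio was 0.45 in place of 1.27. Compared within 4 equal groups of spots by total UMIs, CCL21 stood at 2.81, 0.683 and 3.02 and CSF1R at 3.44, 3.66 and 2.48. Thinned to 1000 UMIs, 35, 16 and 67 CD68 spots remained, with 0, 2 and 28 UMIs of CSF1R in them and 0, 3 and 38 of CCL21, whose thinned ratio was 1.39 at 2 weeks and 1.51 at 16 weeks, so that the thinned values rest on few molecules.

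In COL1A1 spots CCL21 was higher in each stored section. It had 298 UMIs there and 189 elsewhere in stored healthy muscle, a ratio of 3.45 (2.87 to 4.16), and stood at 2.83 (2.12 to 3.84) at 2 weeks and 2.35 (2.10 to 2.63) at 16 weeks. CSF1R was at 3.10 (2.52 to 3.80), 2.17 (1.49 to 3.23) and 3.09 (2.64 to 3.62), CCL14 at 2.01 (1.68 to 2.41), 1.98 (1.44 to 2.79) and 2.53 (2.20 to 2.90), and TNFAIP6 at 2.43 (1.91 to 3.08), 2.03 (1.11 to 3.99) and 2.19 (1.77 to 2.70). IL34 was at 3.24 at 16 weeks (1.91 to 5.48), and TNFRSF25 at 7.11, with 17 of its 25 UMIs in COL1A1 spots (2.91 to 19.03). CXCL9 had 13 of 21 stored healthy UMIs in COL1A1 spots (3.56, 1.37 to 9.90), and CCL2 53 of 58 2-week UMIs (3.83, 1.54 to 12.3). IL6ST (0.938, 0.505 and 0.971) and TNFRSF19 (1.35, 1.14 and 0.927) had intervals that held 1 in all 3 sections. Past 2-fold higher were 0 of 9, 7 of 16, 3 of 13 and 8 of 15 members, against 8.42%, 11.0%, 9.02% and 12.6% of all features.

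As a description across spots, Spearman's rho between the UMIs of a member and of CD68, each relative to the total of the spot, was 0.158, 0.185 and 0.169 for CSF1R, over 2440, 854 and 1726 spots. For CCL21 and CD68 it was 0.028, 0.016 and 0.099. With COL1A1 it was 0.217, 0.243 and 0.250 for CSF1R and 0.110, 0.157 and 0.207 for CCL21. The spots of a section share a library and differ in depth, and most counts were 0 or 1. After thinning, rho with CD68 was -0.021, 0.006 and 0.105 for CSF1R and -0.020, 0.036 and 0.056 for CCL21. With COL1A1 the thinned values were 0.028, 0.106 and 0.208 for CSF1R and 0.117, 0.176 and 0.178 for CCL21.

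**Figure D5:**
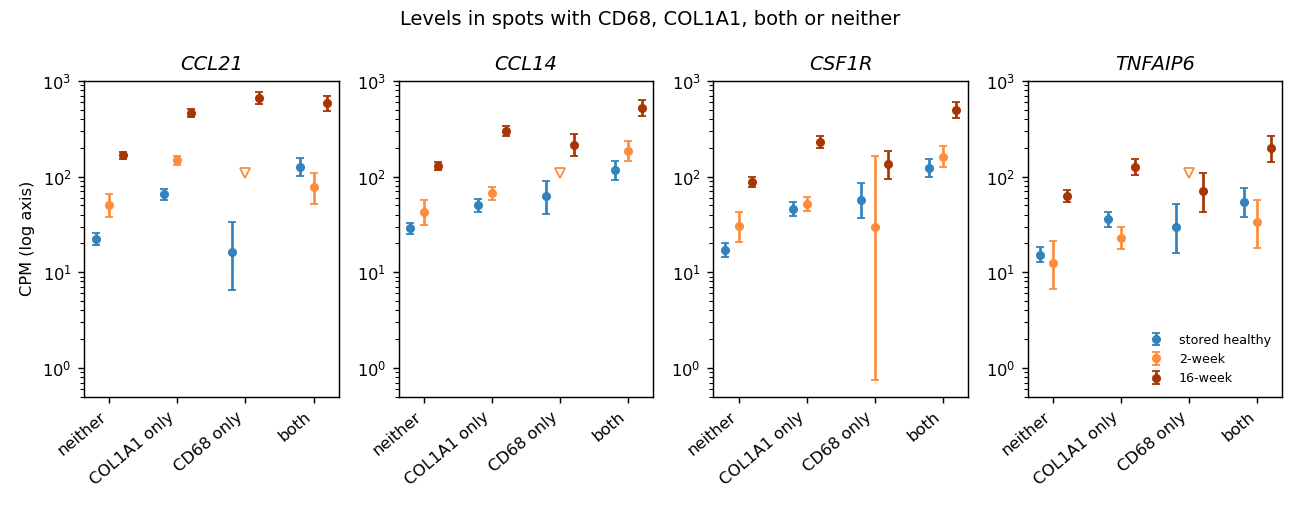
Points show the CPM (y axis, log scale) of CCL21, CCL14, CSF1R and TNFAIP6 in spots without CD68 and COL1A1, with COL1A1 only, with CD68 only and with both (x axis), in the 3 stored sections with exact Poisson 95% intervals, and open triangles give the upper limit where no UMI was counted. CCL14 and CSF1R were highest in spots with both genes, and CCL21 in CD68 spots without COL1A1 was low in stored healthy muscle and high at 16 weeks.

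When spots were split by both genes, CSF1R in stored healthy muscle stood at 17.01 CPM in 1700 spots with neither, 45.8 in 571 spots with COL1A1 only, 57.5 in 76 spots with CD68 only and 124 in 93 spots with both. Spots with CD68 only and COL1A1 only had overlapping intervals (37.2 to 84.9 and 38.8 to 53.8), and spots with both stood above each (98.9 to 154). At 16 weeks CSF1R was lower with CD68 only (134, 94.9 to 184) than with COL1A1 only (232, 201 to 266). Its level in 16-week spots with both was 502 (410 to 609). The 6 2-week spots with CD68 only held 1 CSF1R UMI. CCL21 in stored healthy muscle differed from CSF1R there, with 22.3 in spots with neither, 65.4 with COL1A1 only, 16.1 with CD68 only (7 UMIs, 6.48 to 33.2) and 127 with both. Of the 84 CCL21 UMIs in these spots with both, 40 came from 1 spot. In the 2-week section 66.2% of all spots had COL1A1, and so had 63 of 69 CD68 spots. There CCL21 was at 77.3 in spots with both (52.1 to 110) and at 148 in the 502 spots with COL1A1 only (133 to 163). In the 16-week section CCL21 was at 671 in 80 spots with CD68 only (579 to 773) and at 465 in 318 spots with COL1A1 only (421 to 512). The stored healthy and 16-week sections were thus opposite in which of these classes held more CCL21. A single 16-week spot held 94 CCL21 UMIs, and the classes were not recounted without the richest spots. CCL2 had 16 of its 50 stored healthy UMIs in the 76 spots with CD68 only, a level of 36.8 (21.0 to 59.8) against 5.50 with COL1A1 only (3.26 to 8.69). Of these 16 UMIs, 14 came from 1 spot, so that the difference rests largely on that spot.

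Some pairs of members also occurred together, and for others the ratio depended on which gene defined the spots. In the 361 stored healthy spots with CCL14, CSF1R was 3.44-fold higher than in other spots (2.80 to 4.22), and it was 4.53-fold higher at 2 weeks (3.46 to 5.96) and 2.73-fold at 16 weeks (2.33 to 3.21). CCL2 was 6.39-fold higher in 2-week spots with CCL14 (3.60 to 11.7). CCL21 was 2.58-fold higher in spots with CSF1R in stored healthy muscle (2.11 to 3.14) and 2.15-fold at 16 weeks (1.92 to 2.40), while at 2 weeks the ratio was 0.906 (0.709 to 1.15). Read the other way, CSF1R was 1.71-fold higher in 2-week spots with CCL21 (1.28 to 2.28). IL1R2 was 5.87-fold higher in stored healthy spots with CCL14 (3.26 to 10.7) and 2.13-fold in 16-week spots (1.42 to 3.20). At 2 weeks CCL21 in the spots with IL1R2 was at 0.307 times its level elsewhere (5 UMIs, 0.0993 to 0.722). IL1R2 in the 2-week spots with CCL21 was at 1.29 (7 UMIs, 0.462 to 3.14). TNFAIP6 in 2-week spots with CCL21 was at 0.883 (0.479 to 1.54). The share of all features past 2-fold in such spots was not counted.

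The leading members were also set against whole marker lists in place of single genes. In the 25% of spots richest in the fibroblast list, CCL21 stood at 5.01 (4.15 to 6.06), 5.63 (4.65 to 6.83) and 7.29 times (6.52 to 8.14) its level elsewhere. CSF1R stood at 4.04 (3.30 to 4.97), 4.25 (3.25 to 5.57) and 5.61 (4.79 to 6.57) there and CCL14 at 3.31, 4.003 and 5.44, and the intervals of CSF1R and CCL21 overlapped. In the 25% richest in the vessel wall list (MYH11, ACTA2 and RGS5) CCL21 was at 5.28, 5.26 and 4.77, where CSF1R was at 1.55, 1.76 and 2.65 and CCL14 at 1.82, 1.78 and 2.56, with intervals apart from that of CCL21 in each section. For the endothelial list CCL21 was at 3.38 (2.82 to 4.06) in stored healthy and 3.23 (2.68 to 3.89) in 2-week muscle. CSF1R was at 1.75 and 2.04 and CCL14 at 1.84 and 1.97 in these 2 sections. For the macrophage list the ratios of CSF1R, below its fibroblast ratios with overlapping intervals, were 3.73, 3.61 and 4.85 and those of CCL21 1.98, 2.45 and 5.32. In the 25% richest in MYH1 and MYH7, the muscle fiber genes with a feature, CCL21 at 16 weeks was at 0.185 times its level elsewhere (0.151 to 0.224), CCL2 at 0.219, CSF1R at 0.449, CCL14 at 0.452 and TNFAIP6 at 0.573. In the stored healthy section the same ratios were 1.73 for CCL21, 1.51 for CSF1R, 1.52 for CCL14 and 1.89 for TNFAIP6, above 1 with their intervals, and TNFRSF19 at 16 weeks was at 1.28 (0.885 to 1.85). At 2 weeks the ratios were mixed, at 1.49 for CCL21 (1.22 to 1.81), 0.900 for CSF1R (0.648 to 1.23), 0.9404 for CCL14 (0.706 to 1.24) and 0.318 for TNFAIP6 (0.133 to 0.658).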

How the data were processed

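Visium 3′ libraries of 4 sections were counted by the authors with Space Ranger 1.2.0 on OryCun2.0 with Ensembl annotation, with images aligned by hand. The deposited values are UMI counts per feature and spot under tissue, without normalization, in which, by that tool's default, reads that share a UMI are merged and reads that map to several genes are dropped. All 6970 spots and 21139 features were used, and spot positions were not used. Doublets were not called, as spots are areas of tissue.

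Members were taken by name, and 107 of 108 names are also in RefSeq's mOryCun1.1 annotation, used for names only. The members and lists were chosen with earlier results of these data known. Levels are UMIs per 1000000 UMIs (CPM), and ratios between sections or spot groups carry 0.5 added UMI on the log2 scale. Features needed 20 UMIs, and called means past 2-fold. Named are the 12 members with most UMIs, the 3 with most in each section, the 3 largest and smallest ratios in each section comparison and the 3 largest ratios in each CD68 or COL1A1 comparison. A 0 is read as up to 3 counts. Spots were thinned to 1000 UMIs without replacement. Spots richest in a marker list are the top 25% by the list's UMIs relative to the spot's total. The ratio code was tested on simulated data. Python 3.11.15, numpy 2.4.6, scipy 1.17.1 and pandas 2.3.3 were used. Depth was 4079313 to 12536450 UMIs per section, and intervals cover counting error only.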

Additional observations from a re-analysis of the deposited data

Results flagged for a closer look

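The ratio of CCL21 in CD68 spots lay on opposite sides of 1 in different sections. Its ratio of level in spots with CD68 to level in other spots was 0.594 in the 2-week section, against 2.40 in the stored healthy section, with the intervals on opposite sides of 1. Against the 16-week section the contrast was 0.594 to 2.76. These differences between sections were not tested, since each condition is 1 section. Beside them, 63 of the 69 2-week CD68 spots also held COL1A1, against 93 of 169 stored healthy and 64 of 144 16-week CD68 spots. COL1A1 was found in 66.2% of all 2-week spots, against 27.2% of stored healthy and 22.1% of 16-week spots. The 10 richest spots held 43.8% of CCL21 in the 2-week section. Without the spot richest in CCL21 the log2 ratio in stored healthy muscle was 0.45 in place of 1.27. Thinned to 1000 UMIs, CCL21 had 0 UMIs in stored healthy CD68 spots, and its ratio was 1.39 at 2 weeks from 3 UMIs. Its rank correlation with CD68 before thinning was 0.028, 0.016 and 0.099 in stored healthy, 2-week and 16-week muscle. After thinning it was -0.020, 0.036 and 0.056. In the 25% of spots richest in the macrophage list, which includes CD68, CCL21 stood above its level elsewhere in all 3 sections. The ratios were 1.98, 2.45 and 5.32 in the same order. The part of these values in the contrast was not tested.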

How the results depend on the processing

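No paired analysis was possible because each condition is 1 section, and the 1 animal number that stored healthy and 16-week muscle share makes a single pair. Over 155 alternative values of sums, shares and counts of called members, 94 stayed within counting error or 1.5 times, 61 moved and 0 reversed, and of 1092 for single genes 954 stayed, 131 moved and 7 reversed. Order in each list below is fresh healthy, stored healthy, 2-week, 16-week. Levels in CPM were 178, 406, 591 and 1303 without mitochondrial genes, 75.2, 176, 358 and 760 without the other names, and 167, 277 and 581 without CCL21 in the last 3. Shares of spots were 5.49, 23.0, 36.3 and 45.4% for 2 or more UMIs, 20.9, 43.3, 60.2 and 64.1% without the other names, and 8.97, 16.5, 27.6 and 48.3% thinned to 1000, 4.99, 9.41, 15.3 and 33.0% to 500 and 15.6, 28.6, 39.8 and 59.0% to 2000 UMIs. For stored over fresh healthy 13 members were higher without the 10 richest spots of each gene and 3 in spots with neither CD68 nor COL1A1. For 2-week over stored healthy 4 were higher without mitochondrial genes, 3 scaled by the median, 3 from 50 UMIs, 12 from 10 UMIs and 3 in spots with neither gene, and 3 were lower from 10 UMIs and 5 without the 10 richest spots. For 16-week over stored healthy 9 were higher scaled by the median, and 1 was lower so scaled and 1 without the 10 richest spots. For 16-week over 2-week 5 were higher scaled by the median, and 0 lower from 50 UMIs, 3 from 10 UMIs and 0 in spots with neither gene. In CD68 spots the number higher became 1, 2, 2 and 4 after thinning (of 1, 6, 3 and 9 compared), 2, 6 and 5 from 50 UMIs in the fresh healthy, stored healthy and 16-week sections, 2 in the fresh healthy section without each gene's richest spot and 2 within 4 groups of spots by depth, and 8 in the 2-week section for 2 or more CD68 UMIs. In COL1A1 spots it became 6 in fresh healthy and 6 in 2-week muscle for 3 or more COL1A1 UMIs, 4 in the stored healthy section from 50 UMIs and 5 in the 2-week section within 4 groups of spots by depth. Reversed log2 ratios in CD68 spots were those of CCL14 (-0.83) and TNFRSF19 (-0.45) in the fresh healthy section without the richest spot, CCL21 (-1.70) and CSF1R (-1.21) in the stored healthy section after thinning, TNFRSF19 (0.21) in the 2-week and LTA4H (-0.57) in the 16-week section for 2 or more CD68 UMIs, and in COL1A1 spots LTA4H (1.72) in the fresh healthy section for 3 or more UMIs. The cause was not tested, and thinning and higher minimums leave fewer UMIs and genes by construction. Leaving out the 10 richest spots took 100% of CCL2 and 70.6% of CCL21 UMIs in fresh healthy muscle, against 62% and 31.4% in stored healthy muscle. Counts of members without these spots are thus partly set by construction. The alternatives without CCL21, without the 10 richest spots, in spots with neither gene, within 4 groups of spots by depth and without the spot richest in CD68 were chosen after seeing the data. For no alternative was the share of all features past 2-fold counted.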

Other observations

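Spots with 3 or more CCL21 UMIs, which numbered 41, 29 and 111 in the stored healthy, 2-week and 16-week sections, held higher levels of other genes as well. Of 2650 features with 50 or more UMIs in each of the 3 sections, 2 were at least 4-fold higher in these spots than in the remaining spots of each section, a choice made after the values were seen. STAB1, a scavenger receptor of sinusoidal and lymphatic endothelium and of some macrophages, was 7.27-fold (5.26 to 9.84), 5.14-fold (3.34 to 7.66) and 4.98-fold higher (3.97 to 6.21). KERA, the proteoglycan keratocan, was 14.2-fold (10.4 to 19.02), 5.97-fold (4.25 to 8.23) and 4.57-fold higher (3.59 to 5.77). MYL9, ACTG2, RAMP2, AEBP1, SLC15A3, SFRP2 and CMTM7 came next, at ratios of 3.31 or more in every section.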
